A study of Mus musculus with 4 samples.

Results

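The genes of prostaglandin and leukotriene metabolism were followed through the leukocytes of injured mouse muscle. They were 10 named genes of the 27998 in the count matrices, chosen by symbol for their place in eicosanoid synthesis, breakdown and sensing. Ptgs1 and Ptgs2 encode the cyclooxygenases, Ptges and Hpgds terminal prostaglandin synthases, Hpgd and Ptgr1 enzymes of prostaglandin breakdown, Alox5, Alox5ap and Lta4h the leukotriene B4 route, and Ltb4r1 the high-affinity leukotriene B4 receptor. All 10 were present in the matrices of the 4 libraries. No cutoff on a measured value was used, but the genes were chosen with earlier results of these data known.

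The cells came from the tibialis anterior, a shin muscle, of male mice 8 to 12 weeks old injected with cardiotoxin, a venom component that kills muscle fibres, and were enriched for the leukocyte surface protein CD45 on beads. Each of 4 groups was 1 library: Bach1 fl/fl mice without Cre (control) and Bach1 fl/fl mice with Lyz2-Cre (Bach1-cKO, labelled KO), each at day 2 (dpi2) and day 4 (dpi4) after the injury. Both genotypes carried the floxed exon 4 of Bach1, which encodes a repressor of transcription, and Lyz2-Cre, which is driven by a myeloid promoter, removes it in monocytes, macrophages and neutrophils. With 1 library per group there was no spread between animals to test against, so no p-value is given. Levels are in CPM, the usual scaling of unique molecular identifiers (UMIs), summed over the cells of a class, to a common class total, ratios are on the log2 scale, and the 95% intervals cover counting error only. A ratio is described as past the rule of size where the difference was 2-fold or more, the interval did not include 1 and both sums together had 50 UMIs or more.

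Eicosanoids are short-lived lipid signals made from arachidonic acid, which phospholipase A2 releases from membranes. Cyclooxygenase turns the acid into prostaglandin H2, from which terminal synthases make prostaglandin E2, prostaglandin D2 or thromboxane, while 5-lipoxygenase and its helper protein FLAP make leukotriene A4, the precursor of leukotriene B4 and of the cysteinyl leukotrienes. Ptgs1 is regarded as the constitutive cyclooxygenase and Ptgs2 as the inducible one. Leukotriene B4 is a strong attractant of neutrophils, and in injured muscle prostaglandin E2 is known to act on muscle stem cells.

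The libraries held 4177 to 6602 barcodes and 57010520 to 80228489 UMIs, of which 3433 to 5721 cells were kept with median depths of 10706 to 15151 UMIs. Pairs of libraries shared 2 to 14 barcodes, at most 0.335% of a library. The floxed exon is not read by a 3′ assay, so the level of Bach1 over all kept cells (189 and 187 CPM in control and labelled KO at dpi2, 211 and 217 CPM at dpi4) checks nothing. In the same order, Lyz2, the locus that carries the Cre, was at 9458, 17.5, 16239.6 and 21.8 CPM and Hmox1, a heme oxygenase repressed by BACH1, at 498, 8221, 423 and 6354 CPM, so both followed the labels. Labelled KO cells thus also differed from control in their Lyz2 level and in carrying Cre, which cannot be told apart from the loss of Bach1 here. The 18 clusters were named from marker genes, and the genes described here and 35 other eicosanoid genes did not take part in the clustering. Macrophages (1983, 1083, 3348 and 2675 cells in the same order) held most cells at dpi4, monocytes (2558, 982, 48 and 61) and neutrophils (630, 831, 127 and 36) were frequent at dpi2, and dendritic cells numbered 315, 240, 367 and 400. Of the dendritic cells, 81.6%, 83.3%, 74.7% and 69.5% were in a cluster led by Cd209a, and the rest were type 1 and mature dendritic cells. Different clusters made up the macrophages of the 2 days: clusters led by Pdpn and Arg1 and by Cd163 held most of them at dpi2, and clusters led by Slc40a1, Tmem176b, Mfge8 and Fam26f at dpi4. A further cluster, led by Il1f9 and Mirt1 with 88, 475, 5 and 11 cells, had a neutrophil marker level between those of neutrophils and other classes and stayed unnamed. It came mostly from 1 library, so a cell state and that library cannot be told apart.

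The positions are those of GENCODE vM21 on GRCm38, the mm10 assembly to which the reads had been aligned. Ptgs2 spans chr1:150100031-150108227 on the plus strand, Ltb4r1 chr14:55765962-55768494 on the plus strand and Ptgr1 chr4:58965439-58987119 on the minus strand, and none of these 3 shares exon sequence with another annotated gene. Ptgs1 (chr2:36230426-36252272) and Alox5ap (chr5:149264767-149288153), both on the plus strand, overlap exons of the antisense genes Gm43621 and Gm19719, although Cell Ranger counts only reads on the sense strand.

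The sequences just upstream of 4 genes are shown because these genes differed between genotypes at dpi2 in several classes or by the largest ratios: Ptgs2, Ltb4r1 and Ptgr1 and, of the wider pathway, Mgst2, a microsomal transferase that can make leukotriene C4. The letters searched on both strands were TGAGTCA (the AP-1 site), TGACNNNGC (the core of the element bound by BACH1 and NRF2 with small MAF proteins), TTGCNNAA (the C/EBP core) and TATAAA, and no matches of different motifs overlapped in the windows shown. The sequences are those of RefSeq (GRCm38.p6), where 9 of the 10 genes had an entry and Alox5ap had none, and each runs 5′ to 3′ for the 250 bases before the start, with matches in capitals: chr1:150099781-150100030 (+) for Ptgs2, chr14:55765712-55765961 (+) for Ltb4r1, chr4:58987079-58987328 (-) for Ptgr1 and chr3:51660929-51661178 (+) for Mgst2.
Ptgs2: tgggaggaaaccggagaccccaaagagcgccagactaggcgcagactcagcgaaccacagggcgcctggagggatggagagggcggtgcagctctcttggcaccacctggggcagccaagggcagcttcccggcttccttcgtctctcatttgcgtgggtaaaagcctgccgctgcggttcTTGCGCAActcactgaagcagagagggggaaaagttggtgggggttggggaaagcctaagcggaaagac
Ltb4r1: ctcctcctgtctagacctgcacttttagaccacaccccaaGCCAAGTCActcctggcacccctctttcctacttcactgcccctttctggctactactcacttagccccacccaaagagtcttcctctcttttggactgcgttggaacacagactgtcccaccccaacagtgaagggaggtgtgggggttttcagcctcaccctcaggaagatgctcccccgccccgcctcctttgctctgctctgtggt
Ptgr1: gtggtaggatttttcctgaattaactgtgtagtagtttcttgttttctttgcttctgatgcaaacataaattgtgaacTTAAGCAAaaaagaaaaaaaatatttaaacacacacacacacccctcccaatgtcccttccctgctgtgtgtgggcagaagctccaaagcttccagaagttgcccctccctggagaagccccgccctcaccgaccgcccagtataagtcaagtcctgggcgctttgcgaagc
Mgst2: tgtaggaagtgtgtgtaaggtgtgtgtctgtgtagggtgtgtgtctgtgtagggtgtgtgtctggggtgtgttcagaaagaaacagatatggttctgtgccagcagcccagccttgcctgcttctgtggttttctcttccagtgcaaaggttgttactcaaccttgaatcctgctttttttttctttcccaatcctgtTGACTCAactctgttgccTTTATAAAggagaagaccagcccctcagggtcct
The Ptgs2 window held the palindromic C/EBP core 69 bases before the start, and the windows of Ptgr1 (172 bases before the start) and Hpgds (176 bases) held it too, as did 9.56% of 32851 promoters. TGACNNNGC was found in the Ltb4r1 window on the minus strand, 210 bases before the start, and in 10.2% of all promoters. Mgst2 had TGAGTCA 52 bases before the start, on the minus strand, as did 4.46% of promoters, and overlapping TATAAA matches on both strands, which 12.4% of promoters held. RefSeq and GENCODE place the starts differently for Mgst2 and Ptgr1: the whole Mgst2 window lies inside the GENCODE gene, which begins at position 51660360 of chromosome 3, and the Ptgr1 window overlaps the first bases of the gene. These matches describe the letters of the window and no binding was measured here.

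Levels of the genes differed between cell classes. Ptgs2 was at 5142, 5606, 4555 and 3301 CPM in neutrophils, given here and for other genes as control and labelled KO at dpi2, then control and labelled KO at dpi4. Its next levels at dpi2 were those of the unnamed cluster (826 and 1348 CPM) and of monocytes (450.2 and 1383 CPM), followed by dendritic cells (207 and 485 CPM) and macrophages (85.4 and 267 CPM). The order was the same in both genotypes except that the intervals of the unnamed cluster (1294 to 1404) and the monocytes (1364 to 1403) overlapped in the library labelled KO. T or NK cells, which are lymphoid, had 8.998 CPM (2.45 to 23.0) in control dpi2. Neutrophils therefore held 32.3% of the Ptgs2 UMIs of control dpi2 with 2.12% of that library's UMIs. Monocytes held 50.1% with 27068949 of its 71899664 kept UMIs.

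Ptgs1 was also highest in neutrophils, at 107, 64.0, 208 and 94.04 CPM in the 4 libraries, the last of these from 36 cells. In macrophages it stood at 1.61, 5.16, 28.0 and 52.0 CPM. The main holder of its UMIs was neutrophils at control dpi2 (59.9%) and macrophages at control dpi4 (91.5%). Macrophages held 37984519 of 71899664 kept UMIs at control dpi2 and 62036467 of 72344423 at control dpi4. Neutrophils went from 630 to 127 cells, so this shift has the changed makeup of the classes in it. Monocytes had 1.29 and 2.56 CPM at dpi2. The 2 cyclooxygenases thus differed in where they were found at dpi2, with Ptgs2 spread over all myeloid classes and Ptgs1 at no more than 5.16 CPM in monocytes, macrophages and dendritic cells.

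Hpgds, hematopoietic prostaglandin D synthase, was a macrophage transcript. Its macrophage level was 105, 98.8, 237 and 227 CPM, against 23.2 and 17.1 CPM in monocytes at dpi2, 28.3, 15.3, 42.7 and 35.9 CPM in dendritic cells, and 8.52 and 2.30 CPM in neutrophils at dpi2. Macrophages held from 83.8% to 97.3% of its UMIs in the 4 libraries, where they were 34.7%, 29.4%, 80.2% and 77.9% of the kept cells. Mast cells are the other well-known source of Hpgds, and mast or basophil markers summed to at most 0.919 CPM in macrophages. Ptges, the inducible prostaglandin E synthase, was rare in every leukocyte class, at 0.790, 1.70, 0.242 and 0.337 CPM in macrophages and 1.18 and 3.26 CPM in dpi2 monocytes. T or NK cells held no Ptges UMI in any library, which allows 6.75, 16.0, 5.92 and 3.74 CPM, a limit above the macrophage level. Fibroblasts, which had passed the CD45 beads as 149 and 45 cells at dpi4, had 9.13 and 11.03 CPM and 68.1% and 48.6% of the Ptges UMIs of those libraries.

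Hpgd, the 15-hydroxyprostaglandin dehydrogenase that starts prostaglandin breakdown, was higher at dpi4 than at dpi2 in macrophages, monocytes and dendritic cells. Monocytes had 19.1 and 34.1 CPM at dpi2 and, from 48 and 61 cells, 105 and 243 CPM at dpi4. Macrophages had 6.42, 11.8, 119.7 and 149 CPM and dendritic cells 18.0, 11.4, 129 and 109.9 CPM. Neutrophils held 1 and 5 UMIs of Hpgd at dpi2, and the unnamed cluster held none in any library. Ptgr1, a reductase that acts on leukotriene B4 and on 15-keto-prostaglandins, was at 25.2, 59.0, 22.0 and 25.3 CPM in macrophages, which held most of its UMIs. Fibroblasts of dpi4 had 26.5 (21.4 to 32.5) and 45.4 CPM (35.4 to 57.4). The unnamed cluster of the library labelled KO at dpi2 had 209.9 CPM (189 to 233), its highest level in any class.

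Alox5, 5-lipoxygenase, was highest in neutrophils at 123, 128, 139.8 and 75.2 CPM. Dendritic cells had 26.3, 25.1, 13.9 and 5.82 CPM, macrophages 4.74, 8.49, 4.69 and 5.86 CPM, and T or NK cells no UMI in any library. Alox5ap, which encodes FLAP, was present throughout the myeloid classes, with 1715, 1589, 888 and 1194 CPM in neutrophils, 901 and 939 CPM in dpi2 monocytes, 854, 800.4, 801 and 812 CPM in dendritic cells, and 649, 734, 473 and 580.3 CPM in macrophages. In T or NK cells it was at 21.7 to 53.4 CPM. Lta4h, the hydrolase that completes leukotriene B4, had 108, 42.7, 82.9 and 93.6 CPM in T or NK cells against 28.3, 35.0, 33.1 and 32.1 CPM in macrophages. It and the receptor Ltb4r1 were the members with a higher level in T or NK cells than in macrophages in every library, although the Lta4h interval in the 37 T or NK cells of labelled KO dpi2 (18.4 to 84.1) reached below the macrophage level. Neutrophils had 24.2 and 16.8 CPM of Lta4h at dpi2. The receptor Ltb4r1 was at 64.2 and 203 CPM in dpi2 neutrophils, 64.1 and 134 CPM in dpi2 monocytes, 67.4, 93.5, 55.8 and 40.9 CPM in dendritic cells, 54.0, 64.0, 27.6 and 22.5 CPM in T or NK cells, and 8.16, 21.5, 2.80 and 2.23 CPM in macrophages. Its control dpi2 levels in neutrophils, monocytes, dendritic cells and T or NK cells had overlapping intervals.

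**Figure D1:**
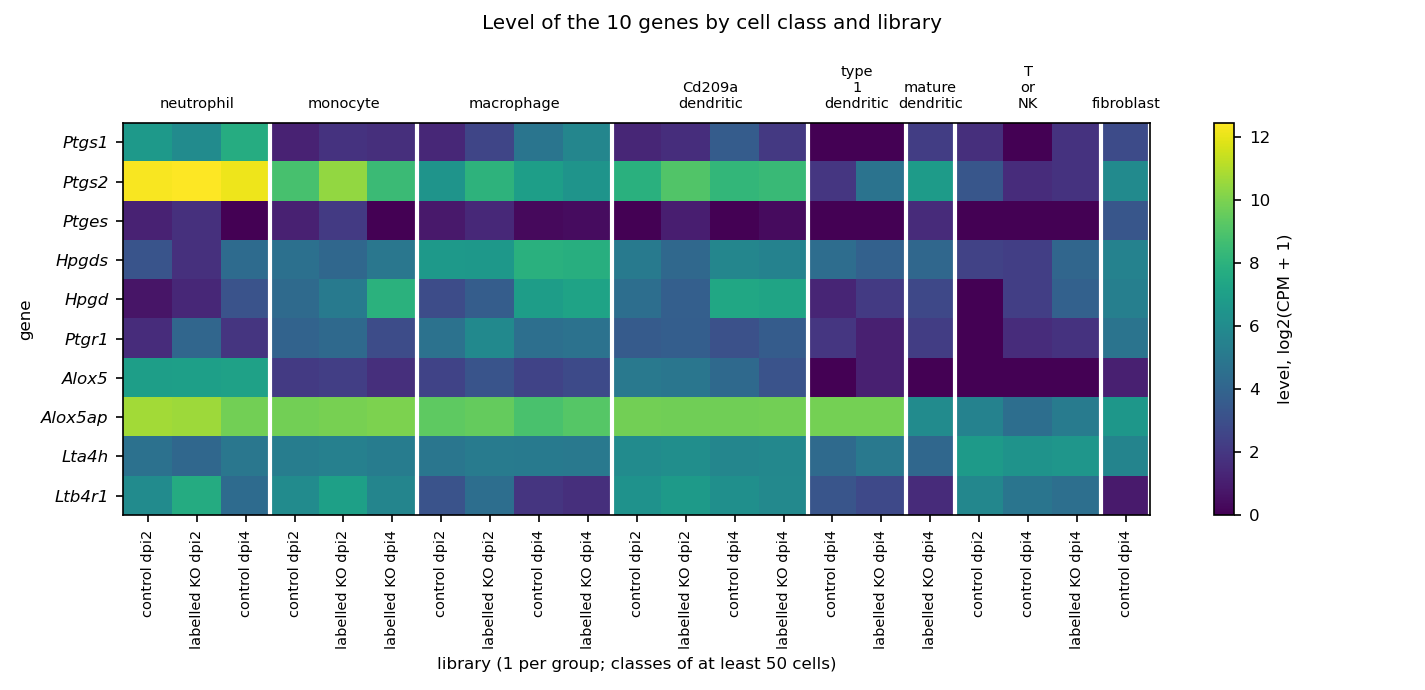
Level of the 10 genes, as log2(CPM + 1) on a colour scale, in each cell class (column blocks) and library (columns) with at least 50 cells, with dendritic cells split into their 3 kinds. Ptgs2 is brightest in neutrophils, as is Alox5ap at dpi2, Hpgds is brightest in macrophages, and Hpgd in the dpi4 columns of macrophages, monocytes and Cd209a dendritic cells.

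**Figure D2:**
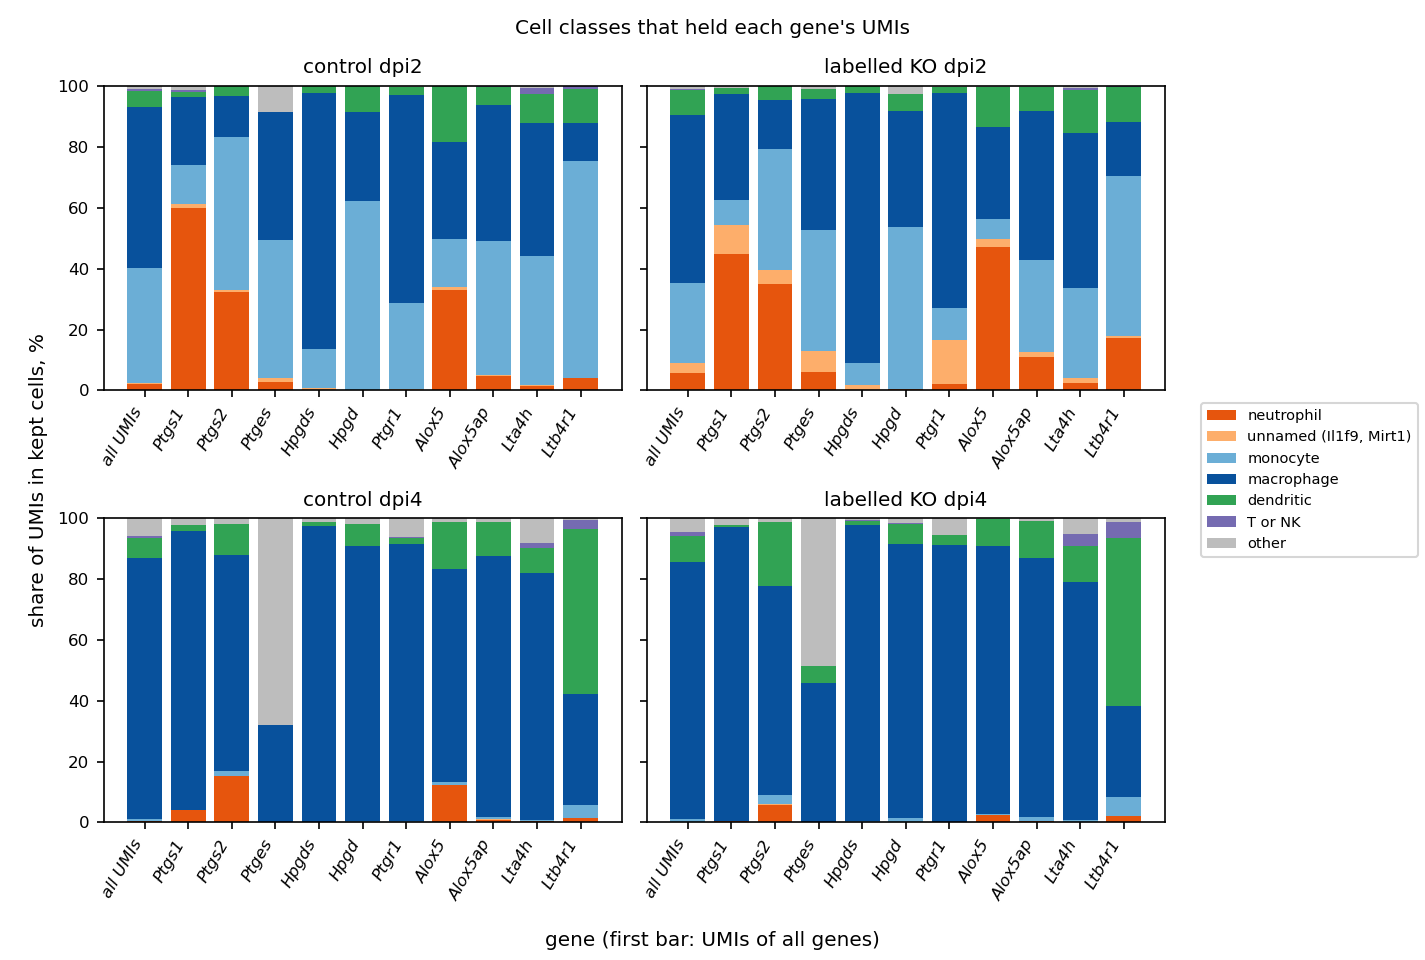
Share of each gene's UMIs in the kept cells, in %, that came from each cell class (stacked colours), with 1 panel per library and all genes together as the first bar. At control dpi2 neutrophils hold 32.3% of Ptgs2 and 59.9% of Ptgs1 with 2.12% of all UMIs, whereas at dpi4 macrophages hold over 90% of Ptgs1 in both libraries. Macrophages hold 62036467 of 72344423 kept UMIs in control dpi4 and 47434117 of 56178382 in labelled KO dpi4.

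The first comparison asked how the genes stood in Bach1-cKO cells at dpi2. In macrophages 5 of the 10 genes were past the rule of size, all higher in the library labelled KO, while 5.24% of the 11087 genes tested were past it (268 higher and 313 lower). The median log2 ratio was 0.99 over the 10 genes and -0.02 over all genes. Ptgs2 rose from 85.4 CPM (82.5 to 88.4) to 267 CPM (261 to 273), a 3.12-fold difference with a log2 ratio of 1.64 (1.58 to 1.70). Ptgs1 rose from 1.61 to 5.16 CPM (1.68, 1.25 to 2.14), on 61 and 152 UMIs. Both cyclooxygenases were therefore higher by about the same factor from very different starting levels.

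The receptor Ltb4r1 rose in the same macrophages from 8.16 to 21.5 CPM (1.39, 1.20 to 1.59), and the reductase Ptgr1 from 25.2 to 59.0 CPM (1.23, 1.11 to 1.34). Ptges rose from 0.790 to 1.70 CPM (1.10, 0.42 to 1.81) on 30 and 50 UMIs. The other 5 genes were not past the rule: Hpgd had a log2 ratio of 0.88 (0.64 to 1.12), Alox5 0.84 (0.56 to 1.13), Lta4h 0.31, Alox5ap 0.18 and Hpgds -0.09. The macrophage enzyme Hpgds and the abundant Alox5ap thus stayed within a factor of 1.5, and the interval of Hpgds lay between -0.16 and -0.02. Ptges was no longer past the rule at a Leiden resolution of 0.5 or with at least 200 UMIs in the pair, nor was Ltb4r1 when monocytes and macrophages were pooled (0.88).

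Several measures moved with these ratios in macrophages. The median depth was 17998 UMIs per cell in control and 26021 in labelled KO, and the 12 immediate early and dissociation genes summed to 6449.6 and 9216 CPM, with Junb at 2.21-fold and Hspa1a at 0.863-fold. The 7 neutrophil markers, all of them detected, summed to 106 and 263 CPM. If those marker UMIs had come with whole neutrophil RNA, they would have carried 10.3 and 20.3 CPM of Ptgs2, against the 85.4 and 267 CPM measured, and 0.129 and 0.736 CPM of Ltb4r1, against 8.16 and 21.5 CPM. After every macrophage was thinned to 2000 UMIs, 10.5% (9.21 to 12.0) of control and 21.8% (19.3 to 24.4) of labelled KO cells had a Ptgs2 UMI, compared with 29.3% and 56.3% before thinning. In the T or NK cells of control dpi2, with a median of 3931.5 UMIs, the thinned share was 3.06% (0.636 to 8.69). The part of depth and of the immediate early genes in the ratios was not tested.

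Within the dpi2 macrophages the 2 main clusters differed for Ptgr1. In the cluster led by Pdpn and Arg1 (1265 control and 518 labelled KO cells) Ptgr1 rose from 25.3 to 85.6 CPM (1.76, 1.62 to 1.89), whereas in the cluster led by Cd163 (612 and 487 cells) it was at 23.5 and 27.4 CPM (0.22, -0.02 to 0.46). Those intervals do not overlap. At a Leiden resolution of 2 a cluster led by Hmga2 and Htr2b had 1112 control and 155 labelled KO cells of dpi2. Another, led by Arg1 and Jag1, with Hmox1 and Ptgr1 among its leading genes, had 68 and 481 cells. Together they held more labelled KO cells than the Pdpn cluster, and the cluster led by Cd163 then had 515 and 309 cells. The border between the Pdpn and Cd163 clusters thus depended on the resolution. Ptges was past the rule in the Pdpn cluster (1.11 and 2.31 CPM, 1.06) and not in the Cd163 cluster, where it had too few UMIs. Hpgd rose past the rule in the Cd163 cluster, from 3.98 to 12.4 CPM (1.64, 1.14 to 2.16), and had 5.86 and 9.13 CPM (0.64, 0.30 to 0.98) in the Pdpn cluster. Ptgs2 rose in both, from 86.7 to 235 CPM in the Pdpn cluster (1.44, 1.36 to 1.52) and from 65.4 to 301 CPM in the Cd163 cluster (2.20, 2.09 to 2.32). Ltb4r1 also rose in both, with log2 ratios of 1.27 and 1.39 and overlapping intervals.

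In monocytes at dpi2, 3 of the 10 genes were past the rule, all higher in labelled KO, against 4.65% of 10023 genes, with a median of 0.57 over the 10 and -0.01 over all. Ptgs2 rose from 450.2 to 1383 CPM (1.62, 1.59 to 1.65), Ltb4r1 from 64.1 to 134 CPM (1.07, 0.97 to 1.16), and Ptges from 1.18 to 3.26 CPM (1.47, 0.78 to 2.16) on 32 and 46 UMIs. The ratio of Ptgs2 was thus close to that of macrophages (1.64), and its share of cells was 51.1% and 76.8% before thinning and 33.3% (31.5 to 35.2) and 59.5% (56.4 to 62.6) after it, against 3.06% and 5.41% of thinned T or NK cells. Ptgs1 (0.98, 0.27 to 1.70) and Hpgd (0.83, 0.65 to 1.02) were just under the 2-fold limit, Hpgds had -0.44, and the other 4 genes lay between 0.06 and 0.31. The 7 neutrophil markers summed to 247 and 361 CPM, which would carry 23.9 and 27.8 CPM of Ptgs2. The median depths were 10005 and 13414 UMIs, Junb stood at 1.40-fold, and the heat shock genes Hspa1a and Hspa1b stood at 0.268-fold and 0.207-fold, and their part in the ratios was not tested.

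The monocyte class mixed 2 clusters in unequal shares: the cluster led by Plac8 and Ly6c2 held 67.4% of control and 27.0% of labelled KO monocytes, and the cluster led by F10 and Vcan the rest. In the F10 cluster (835 and 717 cells) Ptgs2 rose from 445 to 1542 CPM (1.79, 1.75 to 1.84), Ltb4r1 from 36.1 to 138 CPM (1.93, 1.76 to 2.11) and Hpgd from 6.14 to 26.8 CPM (2.13, 1.71 to 2.56). In the Plac8 cluster (1723 and 265 cells) Ptgs2 was at 453 and 849 CPM (0.90, 0.84 to 0.97) and Ltb4r1 at 79.1 and 123 CPM (0.63, 0.47 to 0.79), neither of them past the rule. None of the 3 calls of the class was therefore made in the Plac8 cluster alone, and Ptges was not past the rule in the F10 cluster either (0.98). Hpgds fell in both clusters, from 46.5 to 20.6 CPM in the F10 cluster (-1.17, -1.41 to -0.94) and from 10.7 to 5.27 CPM in the Plac8 cluster (-1.02, -1.83 to -0.30). It was not past the rule in the class as a whole (-0.44), except with each library clustered by itself (-2.47). There the F10-led cluster of labelled KO (229 cells) stayed unnamed and outside the monocytes, and that of control (700 cells) was among them. The value of -2.47 thus compares different sets of cells. At a Leiden resolution of 2 the genotypes separated further within the monocyte clusters. A cluster led by F10 and Ly6c2 had 653 control and 115 labelled KO cells of dpi2, and one led by Vcan and Il6, with Ptgs2 among its leading genes, had 102 and 556, so the ratios of the F10 cluster compare different mixtures of cells.

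In neutrophils at dpi2, 2 of the 7 genes with enough UMIs were past the rule, against 8.96% of 5840 genes. The median of all genes was shifted to -0.29 in this pair, and that of the 7 genes was 0.06. Ltb4r1 rose from 64.2 CPM (52.1 to 78.3) in control to 203 CPM (188 to 220) in labelled KO, a log2 ratio of 1.66 (1.35 to 1.98), or 1.96 when centred on the median gene. The share of neutrophils with an Ltb4r1 UMI was 13.3% and 44.0% at median depths of 2306.5 and 3438 UMIs, and 11.4% (8.69 to 14.7) and 30.9% (27.7 to 34.3) after thinning, which left out 167 and 54 shallower cells. Thinned T or NK cells had an Ltb4r1 UMI in 8.16% and 8.11%. At a Leiden resolution of 2 the dpi2 neutrophils separated largely by genotype, into a cluster with Retnlg and G0s2 among its leading genes (73 control and 741 labelled KO cells) and one with Siglecf and Ltb (556 and 91 cells). Ltb4r1 was the gene of the 10 that rose past the rule in macrophages, monocytes and neutrophils alike. Ptgr1 had 3 UMIs in 630 control and 49 in 831 labelled KO neutrophils, a log2 ratio of 3.03 (1.40 to 5.36), and it lost the call with doublets kept, with each library clustered by itself and with at least 200 UMIs in the pair.

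The neutrophil cyclooxygenases were not past the rule. Ptgs2 had a log2 ratio of 0.12 (0.09 to 0.16), or 0.42 when centred, from levels of 5142 and 5606 CPM, and Ptgs1 had -0.75 (-1.05 to -0.44), or -0.45 when centred, from 107 and 64.0 CPM. Alox5 (0.06), Alox5ap (-0.11) and Lta4h (-0.53, -1.17 to 0.12) were not past it either. Neutrophils were therefore the class with the highest Ptgs2 level and with a Ptgs2 ratio below those of monocytes and macrophages, whose intervals did not reach it. In the unnamed cluster at dpi2, Ptgr1 rose from 15.7 to 209.9 CPM (3.74, 2.38 to 5.63) on 4 and 359 UMIs, Hpgds fell from 70.5 to 30.4 CPM (-1.21, -2.01 to -0.35), and Ptgs2 was at 826 and 1348 CPM (0.71, 0.50 to 0.92). With that cluster joined to the neutrophils, the log2 ratio of Ptgr1 was 4.45 and that of Ltb4r1 1.30, and those of Ptgs2 (-0.15) and Alox5 (-0.32) turned below 0.

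In dendritic cells at dpi2, 1 of 8 genes was past the rule, against 2.98% of 8289 genes. That gene was Ptgs2, which rose from 207 to 485 CPM (1.23, 1.11 to 1.34). Neutrophil markers in the same cells summed to 156 and 480 CPM, an amount that would carry 15.1 and 37.0 CPM of Ptgs2. With doublets kept, the log2 ratio was 0.82 and no longer past the rule. Hpgds (-0.89, -1.35 to -0.44) and Hpgd (-0.66, -1.21 to -0.12) were lower in labelled KO without being past it. Cd209a dendritic cells held 790 of the 828 Ptgs2 UMIs of the class in control and 2050 of the 2127 in labelled KO. The median was 0.06 over the 8 genes and -0.01 over all.

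**Figure D3:**
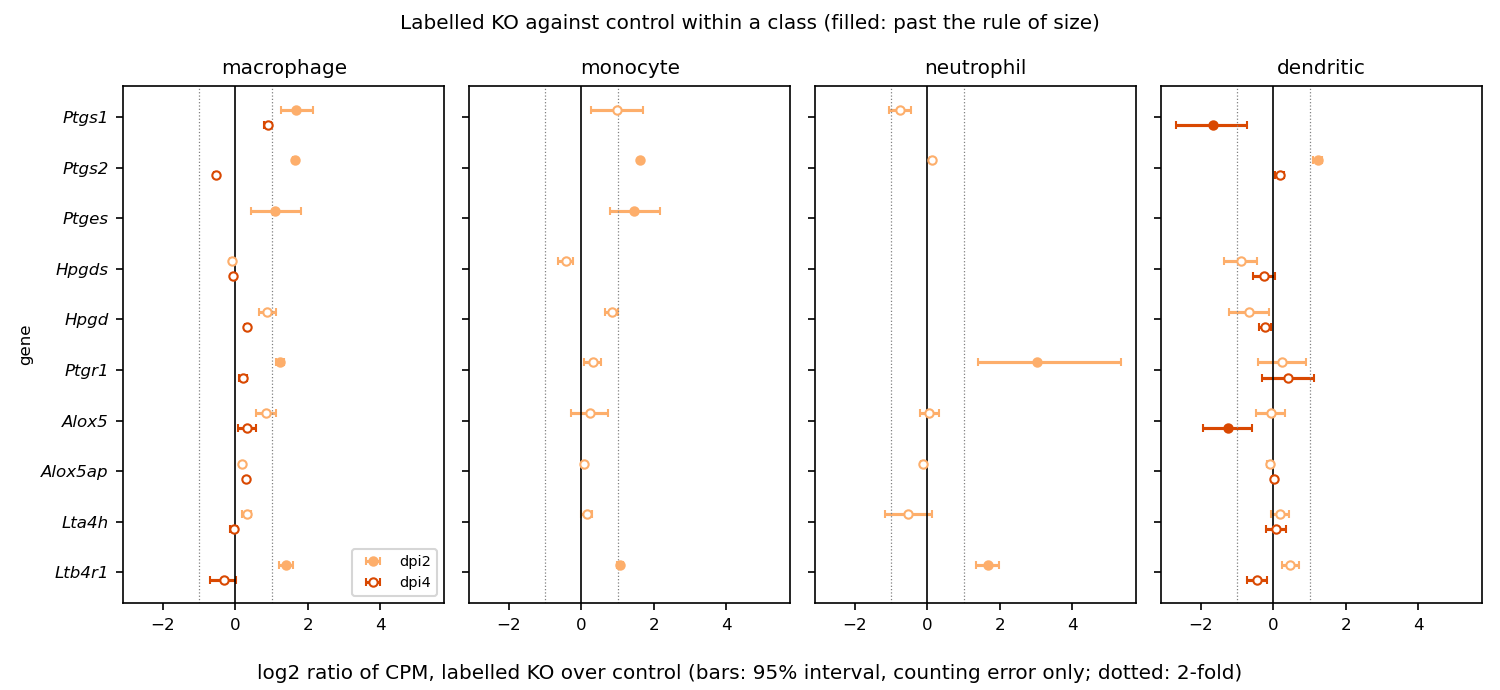
Log2 ratio of CPM, labelled KO over control, for each gene (rows) in 4 cell classes (panels) at dpi2 and dpi4 (colours), with 95% intervals for counting error and dotted lines at 2-fold. Filled points are past the rule of size, and macrophages have 5 of them at dpi2 and none at dpi4.

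At dpi4 the picture in macrophages differed. None of the 9 genes with enough UMIs was past the rule, against 2.76% of 12067 genes, and their median log2 ratio was 0.20 (0.02 over all genes). Ptgs1 was nearest to the limit, with 28.0 CPM (26.7 to 29.4) in control and 52.0 CPM (49.96 to 54.1) in labelled KO, a log2 ratio of 0.89 (0.80 to 0.98). It was past the limit with barcodes of at least 200 genes, with each library clustered by itself and at a Leiden resolution of 2 (1.04). In each of these settings some clusters with macrophage markers stayed unnamed and left the class, so the ratios there compare different sets of cells. With at least 200 genes, such a cluster had 1346 control and 512 labelled KO cells of dpi4. Ptgs2 now stood lower in labelled KO, at 125 and 87.3 CPM (-0.52, -0.58 to -0.47), the opposite side of 0 from dpi2. Over the alternatives this ratio ran from -0.69 (mitochondrial share under 5%) to -0.18 (each library clustered by itself). The 12 immediate early and dissociation genes summed to 9257 and 8528 CPM in these macrophages, and their part was not tested. Hpgd (0.31), Alox5 (0.32), Alox5ap (0.30), Ptgr1 (0.20), Hpgds (-0.06), Lta4h (-0.05) and Ltb4r1 (-0.33, -0.69 to 0.03) were all within a factor of 1.5, except that Ltb4r1 was at -1.33 with each library clustered by itself and at -1.05 at a Leiden resolution of 2.

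The 4 main macrophage clusters of dpi4 had the same directions for the cyclooxygenases. Ptgs1 was at 36.2 and 77.2 CPM in the Slc40a1 cluster (1.09, past the rule), 29.2 and 41.2 CPM in the Tmem176b cluster, 16.6 and 31.2 CPM in the Mfge8 cluster and 32.1 and 55.1 CPM in the Fam26f cluster, each time higher in labelled KO. Ptgs2 was at 162 and 127, 191 and 163, 67.3 and 43.8, and 7.23 and 3.01 CPM in the same clusters, each time lower in labelled KO and past the rule only in the last (-1.26, -2.16 to -0.45). The Fam26f cluster stood apart by its low Ptgs2. At a Leiden resolution of 2, a cluster led by Slc40a1 and Il18bp, with Ptgs1 among its leading genes, had 50 control and 721 labelled KO cells of dpi4, and one led by Cd28 and Gdf15 had 412 and 61. Hpgd was past the rule only in the Mfge8 cluster, where it rose from 27.2 to 58.3 CPM (1.10, 0.93 to 1.27), which also had the lowest Hpgd level of the 4. Ptgs1 and Hpgd are among the leading genes of some of these clusters, so their levels between clusters are no separate finding.

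**Figure D4:**
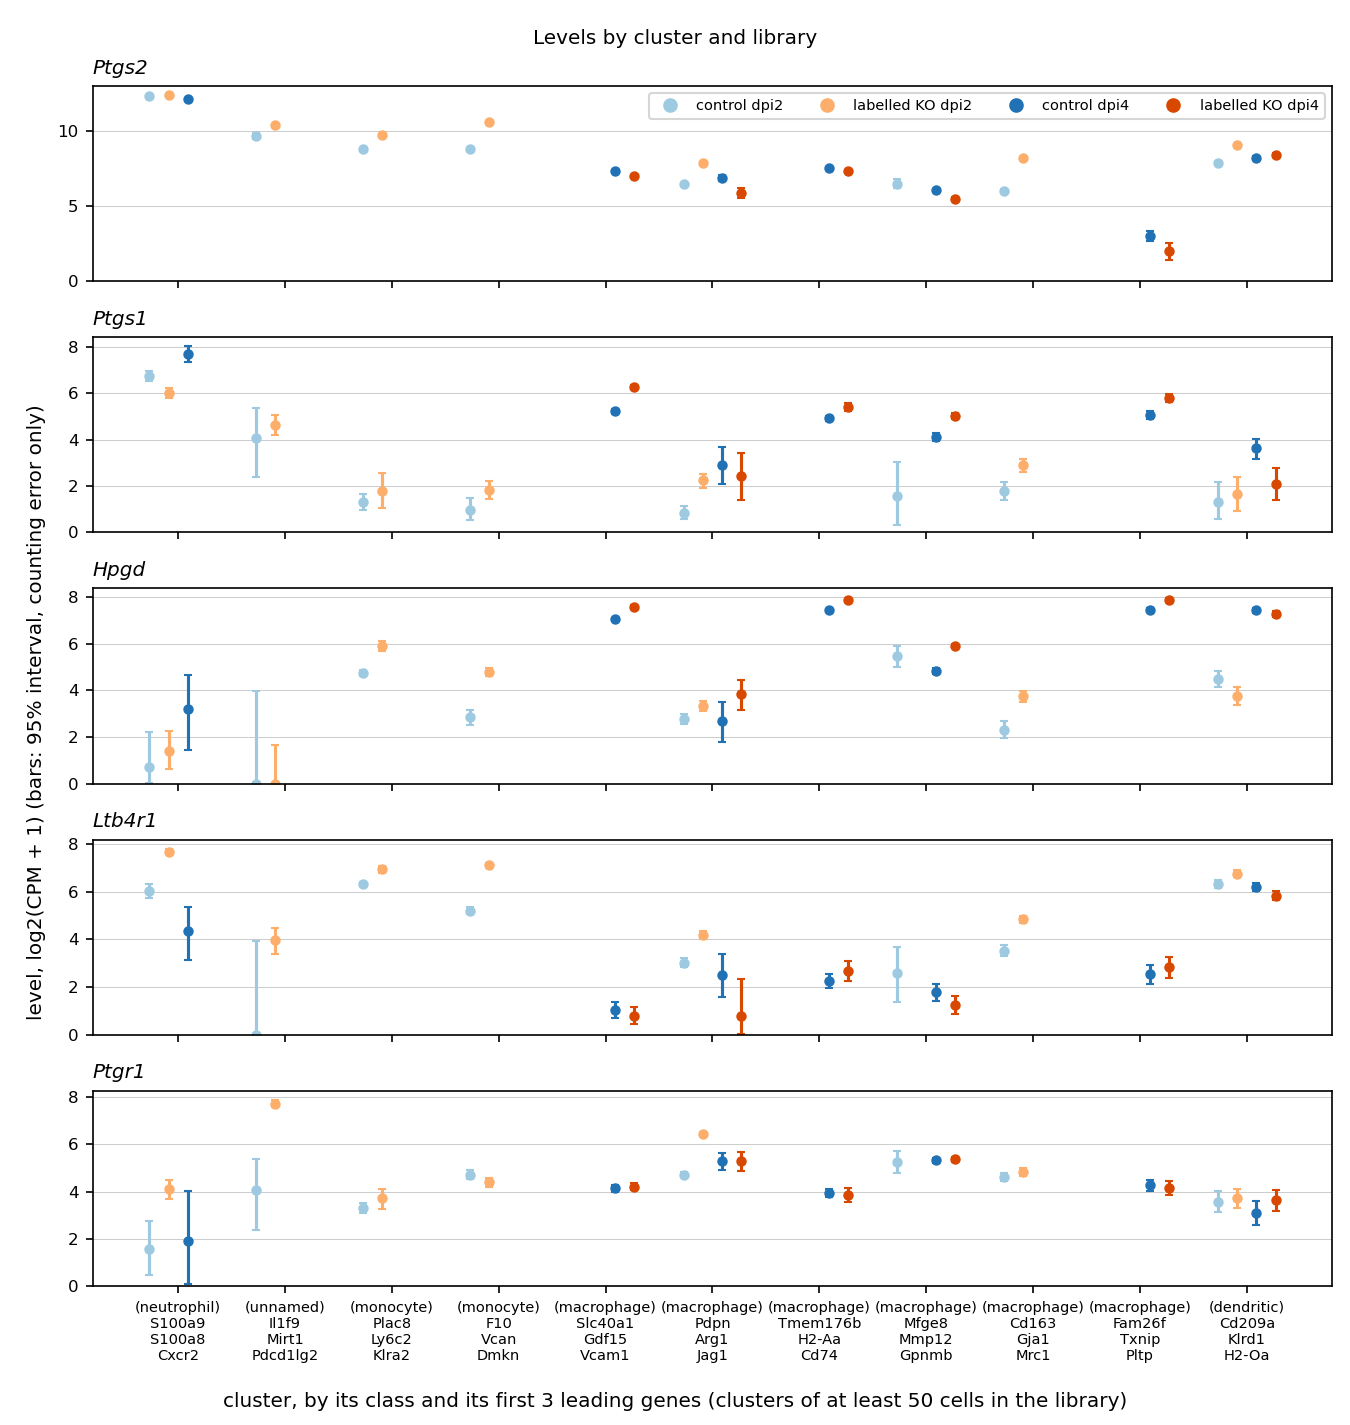
Level of 5 genes, as log2(CPM + 1) with 95% intervals for counting error, in the neutrophil, unnamed, monocyte, macrophage and main dendritic clusters (columns, with leading genes) and in each library with at least 50 cells of the cluster (colours). The labelled KO points of Ptgs2 lie above the control points in every cluster at dpi2, and below them in the 5 macrophage clusters compared at dpi4.

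In dendritic cells at dpi4, 2 of 9 genes were past the rule, both lower in labelled KO, against 1.54% of 8718 genes (median -0.23 over the 9 and 0.03 over all). Ptgs1 fell from 8.55 to 2.70 CPM (-1.66, -2.69 to -0.73) on 40 and 13 UMIs, and Alox5 from 13.9 to 5.82 CPM (-1.26, -1.95 to -0.60) on 65 and 28 UMIs. All 10 macrophage markers were detected in the same dendritic cells and summed to 3216 and 1724 CPM, and their part in the Ptgs1 ratio was not tested. The Ptgs1 call was lost under 6 alternatives, among them doublets kept (-0.81), and the Alox5 call under 2 of them. Cd209a dendritic cells held 64 of the 65 Alox5 UMIs in control. Ptgs2 was at 233 and 264 CPM (0.18) and Ltb4r1 at 55.8 and 40.9 CPM (-0.45, -0.72 to -0.17), after 67.4 and 93.5 CPM (0.47, 0.25 to 0.70) at dpi2. Monocytes and neutrophils were too few at dpi4 (48 and 36 cells in the smaller libraries) for a comparison between genotypes.

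The second comparison was between the days, within a genotype, and it has the changed makeup of the macrophages in it. The 7 muscle markers summed to 5.27 and 61.2 CPM in control macrophages at dpi2 and dpi4 and to 4.89 and 22.8 CPM in labelled KO, and 8.10% and 6.61% of barcodes at dpi2 and 15.4% and 19.9% at dpi4 (control and labelled KO) were at or over the mitochondrial limit. Their part in the day ratios was not tested. In control macrophages 4 of 9 genes were past the rule from dpi2 to dpi4, against 17.0% of 11880 genes, and in labelled KO 7 of 10, against 14.3% of 11456 genes. The median log2 ratio of the genes was 0.23 in control and -0.44 in labelled KO (-0.07 and -0.04 over all genes). Hpgd rose from 6.42 to 119.7 CPM in control (4.22, 4.04 to 4.41) and from 11.8 to 149 CPM in labelled KO (3.66, 3.50 to 3.82). Ptgs1 rose from 1.61 to 28.0 CPM (4.12, 3.76 to 4.52) and from 5.16 to 52.0 CPM (3.33, 3.10 to 3.58). The prostaglandin D synthase Hpgds rose by nearly the same ratio in both genotypes, 1.17 (1.12 to 1.22) and 1.20 (1.14 to 1.26).

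In the other direction, Ltb4r1 fell from 8.16 to 2.80 CPM in control (-1.54, -1.82 to -1.27) and from 21.5 to 2.23 CPM in labelled KO (-3.26, -3.57 to -2.96). At dpi4 the ratio between genotypes was -0.33 (-0.69 to 0.03), or -1.33 with each library clustered by itself, where some macrophage clusters stayed unnamed. Ptgs2 went from 85.4 to 125 CPM in control (0.55, 0.50 to 0.61), not past the rule, and fell from 267 to 87.3 CPM in labelled KO (-1.61, -1.67 to -1.56). Ptges (-2.33, -3.24 to -1.49) and Ptgr1 (-1.22, -1.33 to -1.12) fell in labelled KO as well. In control, Ptgr1 was at 25.2 and 22.0 CPM, and Ptges had too few UMIs to be tested. With monocytes and macrophages pooled, the control ratio of Ptgs2 was -0.90, and the labelled KO ratio of Ptgr1 (-0.87) was not past the rule. With barcodes of at least 200 genes the control ratio of Ptgs2 was 0.03. There a macrophage cluster with 1346 control cells of dpi4 stayed unnamed, so that ratio compares different sets of cells.

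**Figure D5:**
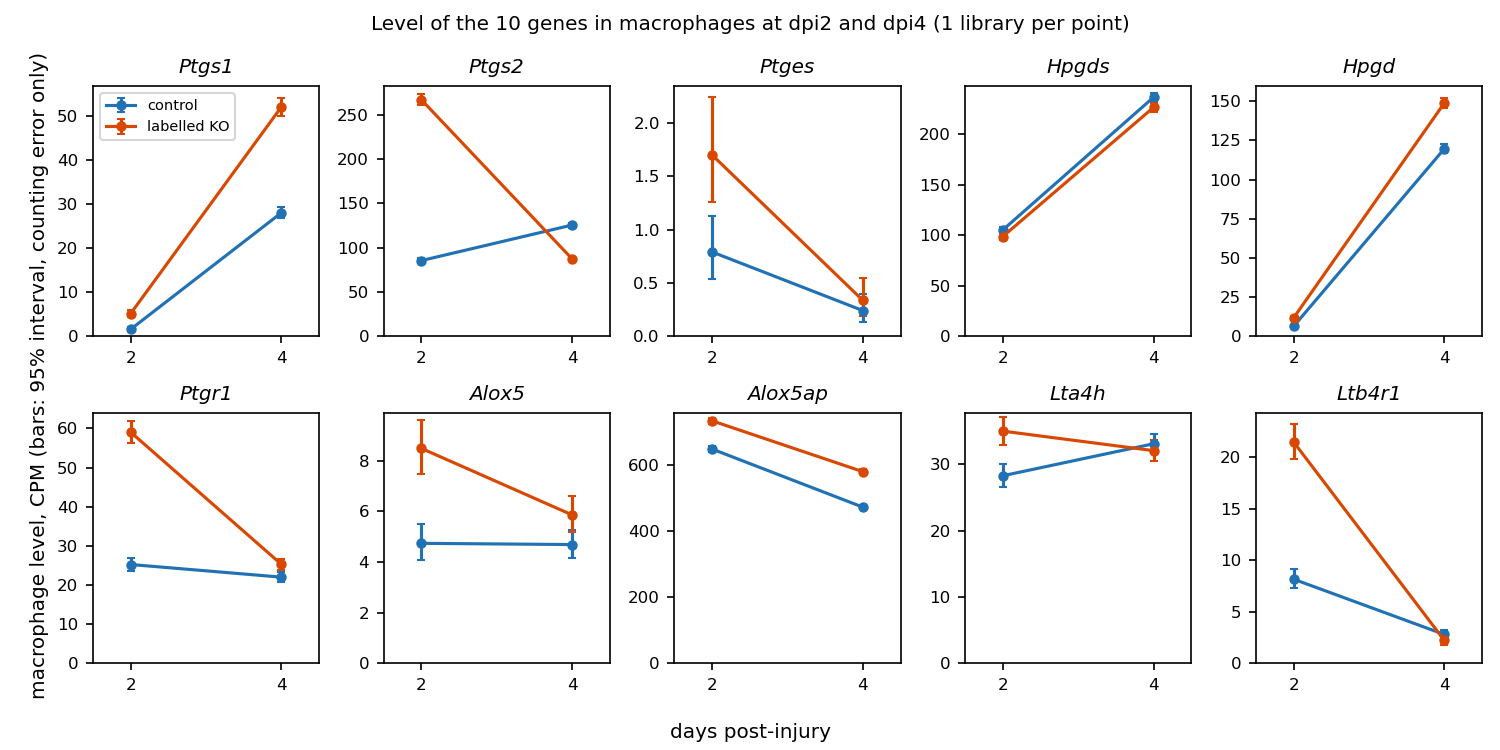
Macrophage level of the 10 genes in CPM, on linear axes from 0, at dpi2 and dpi4 (days post-injury) in control and labelled KO (lines join 1 library per point), with 95% intervals for counting error. Ptgs1, Hpgd and Hpgds are higher at dpi4 in both genotypes, and the labelled KO lines of Ptgs2, Ptgr1 and Ltb4r1 start above the control lines and end within 2-fold of them.

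Dendritic cells had the same direction for Hpgd, which rose from 18.0 to 129 CPM in control (2.84, 2.48 to 3.21) and from 11.4 to 109.9 CPM in labelled KO (3.27, 2.85 to 3.72). In control it was the 1 gene of 8 past the rule, against 7.21% of 8460 genes, and in labelled KO 4 of 8 were past it, against 6.83% of 8621 genes (medians -0.18 and -0.41, with -0.04 and 0.0047 over all genes). The other 3 were Hpgds (1.23, 0.82 to 1.66), Alox5 (-2.11, -2.76 to -1.50) and Ltb4r1 (-1.19, -1.44 to -0.94). Hpgds was at 0.48 and no longer past the rule when each library was clustered by itself. At dpi4 the Cd209a dendritic cells held 600 of the 604 Hpgd UMIs of the class in control and 523 of the 529 in labelled KO. The Hpgd level of dendritic cells was thus that of the Cd209a kind. Macrophage markers in the dendritic cells summed to 488, 640.4, 3216 and 1724 CPM in the 4 libraries, against 11568 to 40959 CPM in macrophages, and their part in the dendritic ratios was not tested. In control neutrophils 1 of 5 genes was past the rule between the days, against 15.1% of 4327 genes, with a median of -0.17 (0.19 over all). That gene was Ltb4r1, which fell from 64.2 to 19.2 CPM (-1.74, -3.09 to -0.65) with 7 UMIs in the 127 cells of dpi4, while Ptgs1 had 107 and 208 CPM (0.95, 0.54 to 1.36) and Alox5ap 1715 and 888 CPM (-0.95).

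The UMIs of the genes were unevenly spread over cells. The top 1% of macrophages held 23.1%, 15.3%, 22.5% and 24.2% of the Ptgs2 UMIs in the 4 libraries, with up to 165 UMIs in a single cell of labelled KO dpi2. For Alox5ap the top 1% held 3.21% to 5.12%. Ptgs1 in control dpi2 macrophages rested on few cells, since 20 of 1983 held 62.3% of its UMIs, compared with 13.4% at control dpi4. Thinned to 2000 UMIs, Hpgd was detected in 0.727% (0.398 to 1.22), 1.90% (1.16 to 2.91), 18.7% (17.4 to 20.1) and 22.0% (20.4 to 23.7) of macrophages, against 0% (0 to 3.69) in the T or NK cells of control dpi2 and 1.56% (0.19 to 5.53) in those of labelled KO dpi4, and before thinning in 5.80%, 11.7%, 47.2% and 49.9%. The Ltb4r1 share in thinned macrophages (1.30%, 4.45%, 0.704% and 0.461%) lay below that of T or NK cells (5.47% to 9.72%), which may carry the receptor themselves, so the share is no sign of expression by itself.

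Enzymes that act in sequence were also compared within cells after thinning. Of the control dpi2 neutrophils with an Alox5 UMI, 95.1% (89.0 to 98.4) had an Alox5ap UMI, as did 95.3% (92.5 to 97.2) of those without. In macrophages of control dpi2 the shares were 81.0% and 73.1%. They were 76.0% and 74.4% in labelled KO dpi2 and 62.1% and 57.5% in control dpi4, with overlapping intervals in each library. In labelled KO macrophages of dpi4, of which 45 had an Alox5 UMI, the shares were 80.0% (65.4 to 90.4) and 63.2% (61.3 to 65.1). Ptgs1 was found in 11.2% (9.22 to 13.3) of those macrophages with an Hpgds UMI and in 8.85% (7.53 to 10.3) of those without, with overlapping intervals. Ptgs2 and Ptges, consecutive steps of a route to prostaglandin E2, were seen together in 1 thinned macrophage of control dpi2 and in 2 of labelled KO dpi2. Thinned macrophages with a Ptges UMI numbered 3 and 4 in those libraries. In dpi2 monocytes both were seen together in 0 of 6 cells with a Ptges UMI in control and 3 of 6 in labelled KO. These cells were too few for a comparison.

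Around the 10 genes, a list of 35 further eicosanoid genes was compared, of which 13 to 20 had enough UMIs in the comparisons between genotypes. In macrophages at dpi2, 3 of 20 rose and none fell, with a median log2 ratio of 0.05, against 5.24% of all genes past the rule. They were Pla2g7, a secreted phospholipase that inactivates platelet-activating factor (129 to 261 CPM, 1.02), Ggt5, a gamma-glutamyltransferase that turns leukotriene C4 into leukotriene D4 (0.579 to 2.27 CPM, 1.97), and Mgst2 (1.0004 to 2.17 CPM, 1.12). At dpi4, where 2.76% of all genes were past the rule, 2 of 20 rose, Mgst2 (2.63 to 5.52 CPM, 1.07) and Abcc1, an exporter of leukotriene C4 (30.2 to 68.7 CPM, 1.18). Among the genes tested, those not past the rule in macrophages between genotypes included the thromboxane synthase Tbxas1 (72.4, 105, 94.6 and 119.6 CPM), the cysteinyl leukotriene receptor Cysltr1 (37.5, 36.3, 40.8 and 35.3 CPM) and the prostaglandin E2 receptor Ptger4 (18.9, 19.6, 28.2 and 18.1 CPM). Other enzymes and receptors of the list, among them Ptgis, Ptgds, Alox12, Alox15, Ptger1, Ptger3 and Cysltr2, had too few UMIs in macrophages to be tested.

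In monocytes at dpi2, 2 of 17 genes of the list rose (4.65% of all genes were past the rule), Pla2g7 (228 to 475 CPM, 1.06) and Abcc1 (38.8 to 120.02 CPM, 1.63). Neutrophils had the largest ratios of the list, with 3 of 13 higher and 1 lower, against 8.96% of all genes past the rule in either direction. Mgst2 rose from 3.93 to 68.0 CPM (4.11, 2.97 to 5.58), Abcc1 from 7.21 to 58.1 CPM (3.01, 2.14 to 4.04) and Ptges3, a co-chaperone also named cytosolic prostaglandin E synthase, from 72.1 to 174 CPM (1.27), while Ltc4s, leukotriene C4 synthase, fell from 58.3 to 17.4 CPM (-1.74, -2.26 to -1.24). Leukotriene C4 synthase and Mgst2, which can make the same product, thus stood on opposite sides of 0 in labelled KO neutrophils. At a Leiden resolution of 2 the neutrophil cluster with Siglecf, which was on the list of eosinophil markers, held 556 control and 91 labelled KO cells of dpi2. Its part in these ratios was not tested. In dendritic cells 2 of 17 rose at dpi2 (2.98% of all genes), Pla2g7 (13.5 to 46.1 CPM) and Ggt5 (3.76 to 8.90 CPM), and 0 of 18 were past the rule at dpi4 (1.54%).

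Between the days, 5 of 20 genes of the list rose in control macrophages (Pla2g7, Ltc4s, Mgst2, Cyp4f18 and Ggt5) and 5 of 20 in labelled KO (Pla2g15, Ltc4s, Mgst2, Cyp4f18 and Ggt5), and none fell, against 17.0% and 14.3% of all genes past the rule in either direction. Cyp4f18, which inactivates leukotriene B4, went from 49.99 to 136 CPM in control and from 51.8 to 115 CPM in labelled KO, and Ltc4s from 16.6 to 35.4 CPM and from 10.9 to 31.9 CPM. In control neutrophils Ltc4s rose from 58.3 to 370.01 CPM (2.67, 2.27 to 3.07) and Pla2g15 rose too, 2 of the 8 genes tested (15.1% of all genes). The cluster with Siglecf at a Leiden resolution of 2 held 556 control cells of dpi2 and 119 of dpi4, and its part in the Ltc4s ratio was not tested. In control dendritic cells, against 7.21% of all genes, 6 of 18 rose (Pla2g7, Pla2g15, Tbxas1, Ltc4s, Cyp4f18 and Ggt5), and in labelled KO, against 6.83%, 3 of 18 rose (Pla2g15, Tbxas1 and Ltc4s) and the phospholipase Pla2g4a fell. Ptgfr, the prostaglandin F receptor, had no UMI in these 4 classes, and Ptgdr, Ptgdr2, Tbxa2r and Ptgds had 2, 6, 8 and 11, so receptors for prostaglandin D2 and thromboxane were not detectable beyond single UMIs.

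As a description of which transcripts had a like pattern, Pearson correlations of log2(CPM + 1) were ranked over 23 class and library sums of at least 50 cells, among 10638 genes. The points share libraries and no p is attached. Ptgs2 was most like Mcl1 (0.95), Ccr1 (0.94) and Clec4e (0.94), Alox5 like Snap23 (0.90), Mmp9 (0.88) and Mcl1 (0.88), and Alox5ap like Lyn (0.95), Btk (0.95) and Il6ra (0.94). Hpgd was most like Cx3cr1 (0.93), Axl and Abca9 (0.89 each), Hpgds like Hexa (0.91), Fam234a and Zfp704 (0.89 each), and Ptgs1 like Peli2 (0.87), Hnmt and Pygl (0.86 each). For Ptgr1 the nearest were Plk2 (0.88) and Vat1 (0.85), for Lta4h Bcl2 (0.92), Tecr and Panx1 (0.86 each), for Ltb4r1 Irf2 (0.82), Stk40 (0.79) and Fosl2 (0.76), and for Ptges Zfp503 (0.83), Tinagl1 (0.79) and Esam (0.76). Among the 10 genes themselves, Ptgs2 and Alox5 were the closest pair (0.86), and Hpgds and Ltb4r1 the farthest (-0.53).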

How the data were processed

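CD45+ cells of the 4 libraries (1 per group) had been captured with 10x Genomics 3′ chemistry, and the deposited values are whole-number UMI counts per gene and barcode, which the authors made with Cell Ranger 6.1.2 on mm10, per the submitters' processing notes. Labelled genotype and day gave the groups. The study's own later steps (miQC, scDblFinder, Harmony and SingleR) were replaced here, so cell names were rebuilt and can differ from the study's. Barcodes with under 10% mitochondrial UMIs and at least 500 genes were kept, and 100 to 289 likely doublets per library were removed by the highest Scrublet scores at 0.8% per 1000 barcodes. The rest were clustered with scanpy 1.11.5 and leidenalg 0.10.2 (2000 variable genes without the eicosanoid genes, 30 principal components, 15 neighbours, Leiden resolution 1), and clusters were named from marker lists.

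UMIs were summed per class and library. The 95% intervals were Poisson for a level, conditional binomial for a ratio and Clopper-Pearson for a share, and a count of 0 was given a limit of 3 counts. They cover counting error only, and no spread between animals was available. Shares were taken after thinning each cell to 2000 UMIs, leaving out shallower cells. The rule of size (2-fold, interval without 1, 50 UMIs) was run on simulated counts that held counting error only. That run therefore says nothing on spread between cells, libraries or animals. The text names all 10 genes, those of 35 pathway genes past the rule and the 3 genes most like each member, with levels of other pathway genes chosen after their values were seen. One gene like a member is not reported here. Members and lists were chosen with earlier results of these data known. Doublet removal, filters, clustering, class definition, scaling, fold and UMI minimum were varied.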

Additional observations from a re-analysis of the deposited data

Results flagged for a closer look

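Macrophage Ptgs2 lay on opposite sides of 0 on the 2 days. Its log2 ratio between genotypes, 1.64 at dpi2 (1.58 to 1.70) and -0.52 at dpi4 (-0.58 to -0.47), differed by 2.17. With 1 library per group, the difference was not tested, and the clusters that made up the class differed between the days. The dpi4 ratio was -0.18 with each library clustered by itself, where some macrophage clusters stayed unnamed and the sets of cells differed. The 12 immediate early and dissociation genes summed to 6449.6 CPM in control and 9216 CPM in labelled KO at dpi2. At dpi4 they summed to 9257 and 8528 CPM, and their part was not tested.

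Dendritic cells had Ltb4r1 above control in labelled KO at dpi2 (0.47, 0.25 to 0.70) and beneath it at dpi4 (-0.45, -0.72 to -0.17), and the difference of 0.92 between the days was not tested. Neither ratio was 2-fold.

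At dpi2 the ratio of Ptgs1 was 1.68 (1.25 to 2.14) in macrophages and -0.75 (-1.05 to -0.44) in neutrophils of the same libraries. The 2 classes thus lay on opposite sides of 0, with a difference of 2.43 that was not tested. The neutrophil ratio was not past the rule and was -0.45 when centred on the median gene. In control macrophages 20 cells held 62.3% of the 61 Ptgs1 UMIs.

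Ptgr1 stood at 209.9 CPM in the unnamed cluster led by Il1f9 in the library labelled KO at dpi2, against 15.7 CPM in the control library. The cluster was outside the named classes, and 475 of its cells came from that library and 88 from the control, so its Ptgr1 level and the library cannot be told apart.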

How the results depend on the processing

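No paired analysis was possible because each group was 1 library and the labels pair none of them. Every log2 ratio past the rule kept its direction under every alternative run. The number of members past the rule in dpi4 macrophages, 0 as reported, was 1 with barcodes of at least 200 genes or at 1.5-fold (Ptgs1 each time), and 2 with each library clustered by itself or at a Leiden resolution of 2 (Ptgs1 and Ltb4r1). In dpi2 monocytes it went from 3 to 5 at 1.5-fold and in the F10 cluster alone, to 4 under 6 alternatives (Ptgs1 gained in 5 of them) and to 2 with at least 200 UMIs or in the Plac8 cluster alone. In dpi2 neutrophils it went from 2 to 1, without Ptgr1, with doublets kept, with each library clustered by itself and with at least 200 UMIs, and to 3 at 1.5-fold (Ptgs1) or at least 20 UMIs (Hpgds). In control neutrophils between the days it went from 1 to 2 when centred (Alox5ap) or with the Il1f9 cluster joined (Ptgs1), to 3 at 1.5-fold and to 0 with at least 200 UMIs. In dendritic cells at dpi2 it went from 1 to 0 with doublets kept, to 2 with at least 200 genes and to 3 at 1.5-fold. At dpi4 it went from 2 to 1 with a mitochondrial share under 5%, with at least 200 genes, with separate clustering and at a Leiden resolution of 2, and to 0 with doublets kept or at least 200 UMIs. In control dendritic cells between the days it went from 1 to 2 with doublets kept or at least 20 UMIs and to 3 at 1.5-fold. With at least 200 genes, separate clustering or a Leiden resolution of 2, some dpi4 clusters with macrophage markers stayed unnamed. The macrophage counts under those settings thus compare different sets of cells. The cause of the shifts was otherwise not tested beyond the thresholds themselves. Of 93 log2 ratios, 61 moved by less than their interval with each library clustered by itself, 75 with doublets kept and 90 at a Leiden resolution of 0.5. Of 170 shares of cells, 61 did so without thinning. The single-cluster alternatives and the joined Il1f9 cluster were chosen after seeing the data. Ptges rested on at most 50 UMIs in a macrophage class.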
